A study of Rattus norvegicus with 12 samples.

Results

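The myosin isoform genes Myh6 and Myh7 and 4 marker genes of heart muscle growth, Acta1, Ankrd1, Rcan1 and Xirp1, were followed through all libraries of the study. These 6 genes were found by their symbols among the 32883 genes of the count table, each matched 1 row, and all 6 were among the 14063 genes kept for testing. RNA came from cultured ventricular cardiomyocytes of newborn rats, the contractile cells of the heart, collected 2 days after an adenovirus delivered a gene. The 12 libraries form 4 groups of 3. By the labels, the control virus carried LacZ, a bacterial gene. The others are labelled as carrying human KAT6A, a histone acetyltransferase. It is given as the wild type (WT), the acetylation-resistant mutant K815R or the acetylation-mimetic mutant K815Q. By these labels all groups share the adenovirus and a delivered gene, and no group without virus is among these samples. Kat6a was not raised in the libraries labelled K815Q, as described below. The labels give neither sex nor strain nor whether the 3 libraries of a group came from separate cell preparations, so the spread between them may be technical.

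Heart muscle builds its thick filaments from a pair of myosin heavy chains. The alpha chain, from Myh6, is the fast motor that dominates the adult rodent ventricle, and the beta chain, from Myh7, is the slow, economical motor of the fetal ventricle. A rise of Myh7 relative to Myh6 is a textbook sign of hypertrophy in rodent heart, together with skeletal alpha-actin (Acta1) and the stretch-responsive nuclear protein Ankrd1. Rcan1 encodes an inhibitor of calcineurin that is itself switched on by calcineurin and NFAT, and Xirp1 encodes an actin-binding protein of the intercalated disc.

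The sequences available for these genes show what sits in and before them. Myh6 and Myh7 are neighbours with 0 protein-coding genes between them in RefSeq (GRCr8, chromosome 15), and each carries a microRNA within its span and on its strand. miR-208a-3p is at chr15:32395568-32395585 and miR-208b-3p at chr15:32421648-32421665, both on the minus strand. Their mature sequences are shown because they mark the pair as copies of each other, with the seed (bases 2 to 8) in capitals. The seed is the same in both, and 3 of 18 bases differ in all.
rno-miR-208a-3p, in Myh6: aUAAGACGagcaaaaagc
rno-miR-208b-3p, in Myh7: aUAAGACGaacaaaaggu

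For Acta1 and Rcan1, the 2 members called lower in the K815Q-labelled libraries than in LacZ, the window from 250 bases before to 50 bases after a RefSeq start (GRCr8) is printed, both on the minus strand. In the Acta1 window (chr19:68784145-68784444) the capitals mark a CArG box at positions -94 to -85, an MCAT box (CATTCC) at -67 to -62 and a TATA box (TATAAA) at -29 to -24, counted from the start. These are matches of letters on either strand, not measured sites. Of 33465 such windows, 1.64% hold a CArG box, 14.2% CATTCC and 14.2% TATAAA. The Rcan1 start used by RefSeq (chr11:45118187-45118486) lies 69829 bases inside the gene's span, and Rcan1 is known to have an internal start under NFAT control. There the capitals mark the NFAT core GGAAA at -225 to -221 and, on the other strand, at -195 to -191. That core is common, at 62.7% of windows. The table's windows of Myh6 and Myh7 start 1966 and 1657 bases inside the genes and are not shown.
Acta1: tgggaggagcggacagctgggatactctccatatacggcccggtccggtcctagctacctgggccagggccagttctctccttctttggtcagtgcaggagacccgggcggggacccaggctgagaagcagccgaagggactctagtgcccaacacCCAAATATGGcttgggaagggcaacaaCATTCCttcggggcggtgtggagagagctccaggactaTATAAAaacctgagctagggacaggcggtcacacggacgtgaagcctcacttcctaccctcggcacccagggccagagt
Rcan1: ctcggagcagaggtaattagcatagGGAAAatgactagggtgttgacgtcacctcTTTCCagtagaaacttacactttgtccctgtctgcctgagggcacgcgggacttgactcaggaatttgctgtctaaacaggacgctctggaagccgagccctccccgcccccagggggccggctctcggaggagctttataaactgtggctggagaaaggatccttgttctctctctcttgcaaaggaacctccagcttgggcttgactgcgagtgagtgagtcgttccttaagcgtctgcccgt

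Gene counts summed to 19102048 to 25451686 per library. Levels are given as CPM, the depth-scaled count with TMM scaling. Differences are log2 fold changes from edgeR's quasi-likelihood test over all libraries with Benjamini-Hochberg adjustment over all tested genes, and "called" means an adjusted p under 0.05. Kat6a, which checks the delivered gene, averaged 93.0 ± 12.3 CPM in WT and 108 ± 11.7 in K815R, but 46.3 ± 3.35 in the K815Q-labelled libraries and 48.1 ± 4.75 in LacZ (SD, n = 3). The K815Q-labelled libraries thus show no rise of Kat6a, and what is said of K815Q below depends on their label. This row is the rat gene, counted from reads aligned to a rat genome. It does not give the amount of the human KAT6A delivered. The defining cardiomyocyte markers were abundant, 8 of them summing to 30348 to 35563 CPM. Other cells were present too: 9 fibroblast markers summed to 10982 to 12826 CPM, 5 smooth muscle markers to 3549 to 4081, 7 endothelial markers to 290 to 364 and 8 macrophage markers to 43.0 to 58.6. The 5 skeletal muscle regulators summed to at most 0.659 CPM, with Myf5 at 0 reads throughout. In these bulk libraries, fewer cells of a type and less RNA per cell cannot be told apart.

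Myh6, the alpha chain, was called in 0 of the 6 comparisons by edgeR, with 0 at an unadjusted p under 0.05 and 0 called by DESeq2. LacZ stood at 12209, 12318 and 12442 CPM, and WT was slightly higher at 12615, 13290 and 13119. K815R stood at 12020, 12544 and 12603 CPM and the K815Q-labelled libraries at 11552, 12232 and 12712. The WT libraries lay just above all LacZ and K815R libraries, and every other pair of groups overlapped. The order of the means ran WT, K815R, LacZ and K815Q-labelled. The widest gap, K815Q-labelled against WT, was -0.10 on the log2 scale (SE 0.0561, 95% interval -0.21 to 0.02, adjusted p 0.448 by edgeR).

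Myh7 was highest in K815R, and all 3 K815R libraries lay above the 9 others. The 3 K815R libraries stood at 4945, 5153 and 5100 CPM. WT stood at 3875, 3682 and 4190 CPM and the K815Q-labelled libraries at 3251, 3986 and 3698 CPM. LacZ stood at 3807, 4715 and 3661 CPM, with replicate 2 apart from the other LacZ libraries and nearest to K815R. LacZ, WT and the K815Q-labelled libraries followed in that order by their means, and their ranges overlapped.

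Myh7 mRNA rose by 0.37 on the log2 scale in K815R against WT (SE 0.0881, 95% interval 0.18 to 0.56, adjusted p 0.0388 by edgeR). It rose against the K815Q-labelled libraries by 0.48 (SE 0.0882, 95% interval 0.29 to 0.66, adjusted p 0.0281 by edgeR). Against LacZ the difference was 0.32 (SE 0.0881, 95% interval 0.13 to 0.51) and missed the threshold (adjusted p 0.0723 by edgeR). DESeq2 called it (adjusted p 0.00828), as did edgeR with no filter (adjusted p 0.0163) and with upper-quartile scaling (adjusted p 0.0450). Without LacZ replicate 2 it was 0.44 and called (adjusted p 0.00269 by edgeR), and without the 3 libraries labelled K815Q it was 0.32 and called (adjusted p 0.0399 by edgeR). The calls of Myh7 against WT and the K815Q-labelled libraries were near the threshold. Leaving out any of the 6 libraries compared ended the call against WT, with adjusted p of 0.0543 to 0.161 by edgeR and log2 fold changes of 0.33 to 0.42. Against the K815Q-labelled libraries only the fit without K815Q replicate 2 kept the call (0.54, adjusted p 0.0148 by edgeR), and the other 5 gave 0.40 to 0.49 with adjusted p of 0.0759 to 0.248 by edgeR.

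**Figure D1:**
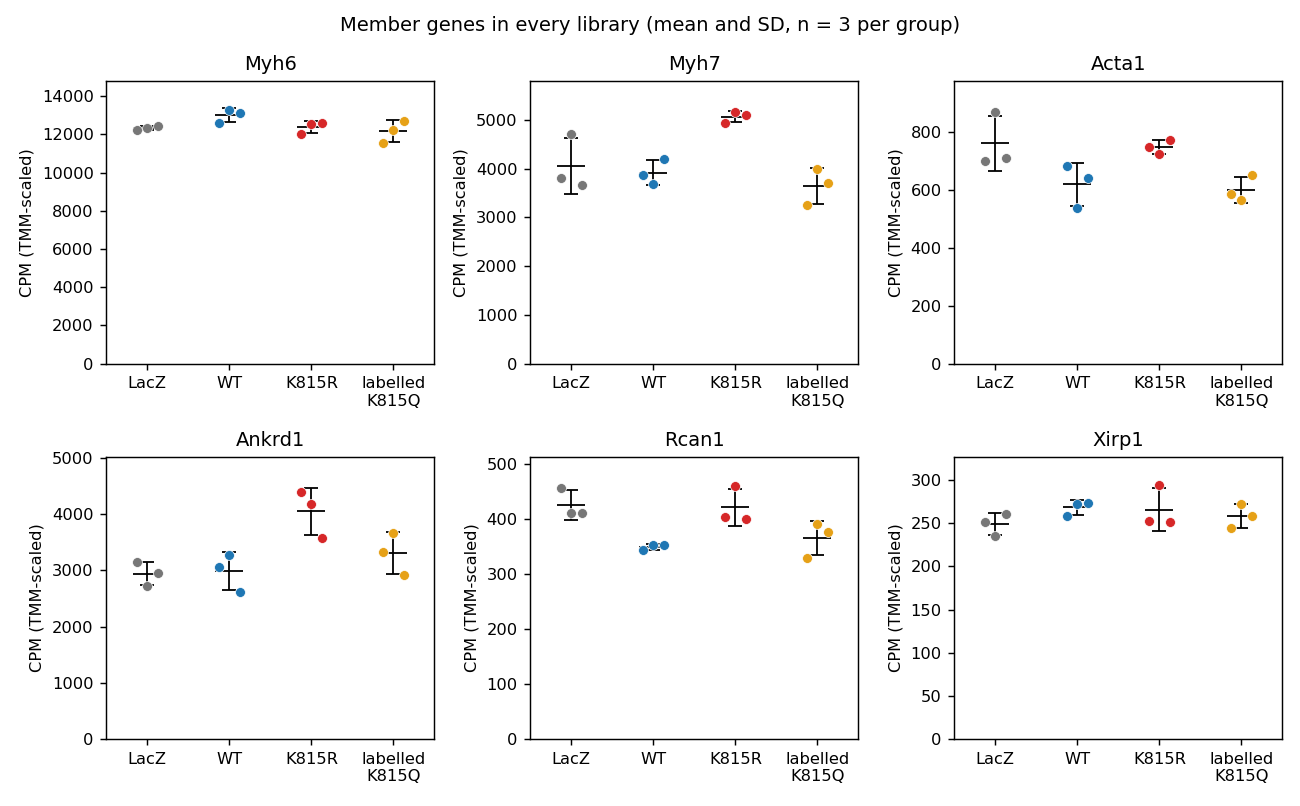
Level of each of the 6 genes in every library, in TMM-scaled CPM, by group; points are libraries and bars the mean and SD (n = 3). The 3 K815R libraries lie above all others for Myh7, at 4945 to 5153 CPM, while Myh6 stays between 11552 and 13290 CPM in all.

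The ratio of Myh7 to Myh6 within a library does not depend on how libraries are scaled. It was taken from read counts without correction for transcript length, so its differences between libraries are informative and its absolute size is not. In K815R there were 0.411, 0.411 and 0.405 Myh7 reads per Myh6 read. LacZ had 0.312, 0.383 and 0.294, WT had 0.307, 0.277 and 0.319, and the K815Q-labelled libraries had 0.281, 0.326 and 0.291. All 3 K815R ratios lay above the other 9, and the other 3 groups overlapped. As a share, Myh7 made up 29.0% ± 0.188 of the reads of both genes in K815R against 24.7% ± 2.61 in LacZ, 23.1% ± 1.29 in WT (SD, n = 3). In the K815Q-labelled libraries the share was 22.0% to 24.6%.

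Over the 4 groups the log2 ratio differed by an exact permutation test of the F statistic over all assignments of the 12 libraries, 369600 in number (two-sided by construction, F = 8.47, p = 0.015). The test stayed under 0.05 when each library was left out in turn, with exact permutation p from 0.00890 to 0.0335. The log2 ratio of K815R exceeded that of WT by 0.44, that of the K815Q-labelled libraries by 0.45 and that of LacZ by 0.32. Each of these had p = 0.1 by a two-sided exact permutation test of 3 against 3, the smallest that design allows, and 0.2 after adjustment over the 6 pairs. Between WT, the K815Q-labelled libraries and LacZ the differences were -0.13 to -0.01, with exact permutation p of 0.4 to 1. The plot of isoform ratios shows K815R apart on the myosin side only. Its actin side is taken against Actc1, which was itself highest in K815R.

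The count table also has a row for Mir208b, the microRNA gene inside Myh7. A poly(A) library does not measure the mature microRNA, and this row held only 13 to 38 reads per library, or 0.676 to 1.57 CPM. The 4 groups overlapped. Between K815R and WT the log2 fold change was -0.19 (SE 0.267, 95% interval -0.75 to 0.36, adjusted p 0.829 by edgeR).

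**Figure D2:**
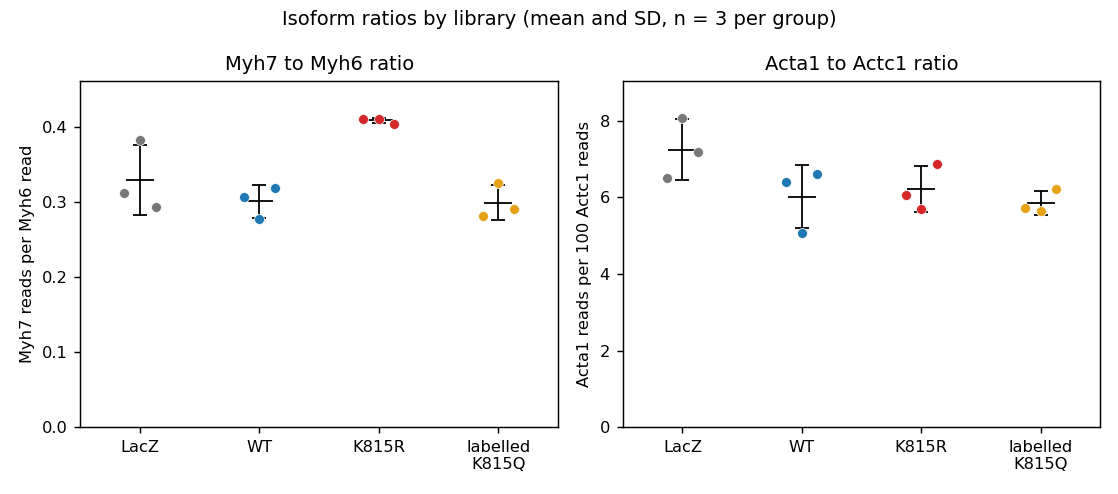
Myh7 reads per Myh6 read (left) and Acta1 reads per 100 Actc1 reads (right) in every library by group; points are libraries and bars the mean and SD (n = 3). K815R lies at 0.405 to 0.411 for the myosins, above the 9 other libraries, and inside their range for the actins.

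Acta1, skeletal alpha-actin, was lower in WT and in the K815Q-labelled libraries than in LacZ and K815R. LacZ stood at 699, 871 and 712 CPM and K815R at 748, 724 and 773 CPM. WT stood at 681, 538 and 641 CPM and the K815Q-labelled libraries at 586, 565 and 650 CPM. Every WT and labelled K815Q library lay below every LacZ and K815R library. By the test, Acta1 fell in the K815Q-labelled libraries against LacZ by -0.34 on the log2 scale (SE 0.0961, 95% interval -0.55 to -0.13, adjusted p 0.0497 by edgeR). The difference of WT from LacZ was -0.29 (95% interval -0.50 to -0.09) and was not called (adjusted p 0.106 by edgeR). DESeq2 called it (adjusted p 0.0117). The differences of K815R from WT, 0.27, and from the K815Q-labelled libraries, 0.32, were not called (adjusted p 0.211 in each by edgeR). The second was called by DESeq2 (adjusted p 0.0334) and by edgeR on the 6 compared libraries alone (adjusted p 0.0184). The difference of K815R from LacZ was -0.02 (95% interval -0.23 to 0.18).

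The call of Acta1 was kept without LacZ replicate 1 or K815Q replicate 3 and lost without LacZ replicate 2 (-0.23), LacZ replicate 3 (-0.39), K815Q replicate 1 (-0.32) or K815Q replicate 2 (-0.30). The adjusted p over these 6 fits ran from 0.0327 to 0.173 by edgeR. With upper-quartile scaling it was 0.0507. Actc1, the cardiac alpha-actin that Acta1 accompanies, was not called in any comparison by edgeR. Actc1 stood at 11247 to 12699 CPM in K815R and at 9904 to 10793 CPM in LacZ. Every K815R library lay above every library of the other groups. The log2 differences of K815R were 0.21 from LacZ, 0.23 from WT and 0.24 from the K815Q-labelled libraries. Their adjusted p were 0.0817, 0.0513 and 0.0896 by edgeR. Acta1 reads per 100 Actc1 reads were 6.50 to 8.07 in LacZ, 5.07 to 6.61 in WT, 5.70 to 6.87 in K815R and 5.64 to 6.23 in the K815Q-labelled libraries. The groups overlapped on this scale, except that every K815Q-labelled library lay below every LacZ library.

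Ankrd1, the cardiac ankyrin repeat protein that binds titin and shuttles to the nucleus, was highest in K815R. The K815R libraries stood at 4382, 4181 and 3580 CPM. LacZ stood at 3149, 2729 and 2943 CPM and WT at 3066, 3273 and 2612 CPM. The libraries labelled K815Q stood at 3328, 3669 and 2916 CPM, between the others, and their highest library passed the lowest of K815R. Ankrd1 rose in K815R against LacZ by a log2 fold change of 0.46 (SE 0.103, 95% interval 0.24 to 0.68, adjusted p 0.0336 by edgeR). Against WT it rose by 0.44 (SE 0.103, 95% interval 0.22 to 0.66, adjusted p 0.0465 by edgeR). Against the K815Q-labelled libraries the difference was 0.29 (95% interval 0.07 to 0.52, adjusted p 0.295 by edgeR).

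The call against LacZ was kept without LacZ replicate 1 or K815R replicate 3. It was lost without LacZ replicate 2 (0.41) or 3 (0.46) and without K815R replicate 1 (0.40) or 2 (0.44), at adjusted p of 0.138 to 0.155 by edgeR. Against WT only the fit without K815R replicate 3 kept the call, and the other 5 gave 0.35 to 0.51 with adjusted p of 0.0518 to 0.192 by edgeR. Testing all genes with a read, without a filter, ended both calls (adjusted p 0.116 and 0.135 by edgeR).

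Rcan1, the calcineurin inhibitor, was lower in WT and in the K815Q-labelled libraries than in LacZ. LacZ stood at 456, 410.1 and 410.0 CPM and K815R at 403, 460 and 400.0 CPM. WT stood at 343, 353 and 353 CPM, the narrowest group, and the K815Q-labelled libraries at 330, 390 and 376 CPM. All 6 libraries of these last groups lay below all 3 of LacZ and all 3 of K815R. Rcan1 fell in WT against LacZ by -0.28 on the log2 scale (SE 0.0640, 95% interval -0.42 to -0.15, adjusted p 0.00991 by edgeR). It fell in the K815Q-labelled libraries against LacZ by -0.22 (SE 0.0640, 95% interval -0.35 to -0.09, adjusted p 0.0390 by edgeR). K815R exceeded WT by 0.27 (SE 0.0641, 95% interval 0.14 to 0.40, adjusted p 0.0304 by edgeR) and stood level with LacZ (-0.02, 95% interval -0.15 to 0.12). K815R and the K815Q-labelled libraries differed by 0.20 without a call (adjusted p 0.188 by edgeR), and with no filter it was called (adjusted p 0.0140 by edgeR).

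The fall of Rcan1 in WT was the steadiest call among the 6 genes. It was kept on leaving out 5 of the 6 compared libraries, 1 at a time, and lost only without LacZ replicate 1 (-0.23, adjusted p 0.0581 by edgeR). In the K815Q-labelled libraries only the fit without K815Q replicate 2 kept the call. The other 5 gave -0.25 to -0.15 with adjusted p of 0.0647 to 0.237 by edgeR, the smallest fall being without K815Q replicate 1. In K815R against WT the calls without K815R replicate 1 and without K815R replicate 3 were kept. Without K815R replicate 2 (0.20) or any WT replicate (0.26 to 0.28) they were lost, at adjusted p of 0.0898 to 0.117 by edgeR.

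Xirp1, the Xin repeat protein that holds actin at the intercalated disc, was called in 0 of the 6 comparisons by edgeR, with 0 at an unadjusted p under 0.05 and 0 called by DESeq2. LacZ stood at 251, 235 and 261 CPM and WT at 259, 273 and 274. K815R stood at 252, 294 and 251 CPM and the K815Q-labelled libraries at 245, 272 and 259. All groups overlapped. The largest difference, WT against LacZ, was 0.11 (SE 0.0602, 95% interval -0.02 to 0.23, adjusted p 0.354 by edgeR). K815R against WT was -0.01 (95% interval -0.14 to 0.11).

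**Figure D3:**
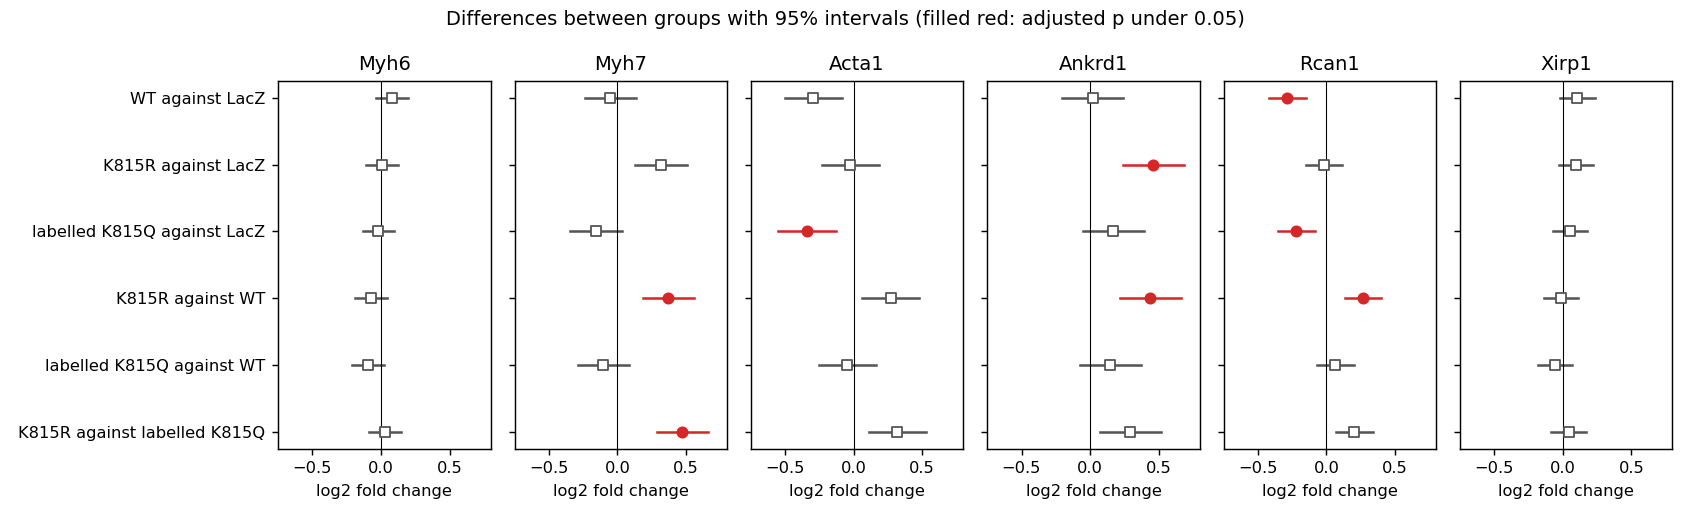
Log2 fold change of each gene in the 6 comparisons with 95% intervals; filled red points passed an adjusted p of 0.05 and open squares did not. Myh7 and Ankrd1 are called only on comparisons with K815R, at 0.37 to 0.48, and Acta1 and Rcan1 only below LacZ or, for Rcan1, in K815R above WT.

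Counted over the 6 genes, K815R against WT had 3 calls, all higher (Myh7, Ankrd1 and Rcan1), where 2.2% of all tested genes were called and 1.32% were called higher. WT against LacZ had 1 call, lower, with 5.34% of all genes called and 3.39% lower. K815R against LacZ had 1 call, higher, with 2.47% called and 0.74% higher. The K815Q-labelled libraries had 2 lower calls against LacZ, with 7.85% called and 4.98% lower. Against WT they had 0, with 1.07% of all genes called by edgeR, 0 of the 6 at an unadjusted p under 0.05 and 0 called by DESeq2. K815R against the K815Q-labelled libraries had 1 call, higher, with 0.363% called and 0.213% higher. The joint test of the 4 groups called Myh7, Ankrd1 and Rcan1 (adjusted p 0.0106, 0.0333 and 0.00877 by edgeR), where 8.13% of all genes were called.

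Groups without overlap were common over all genes. They were found for 5 of the 6 genes in K815R against WT (19% of all tested genes), 3 in WT against LacZ (24.6%) and 3 in K815R against the K815Q-labelled libraries (16%). They were found for 2 in K815R against LacZ (18.7%), 2 in the K815Q-labelled libraries against LacZ (28.4%) and 0 in these against WT (19.3%). The median log2 fold change of the 6 genes in K815R against WT was 0.27, and that of all tested genes was -0.00. The comparisons share libraries, so they do not repeat one another independently. The genes and the lists were chosen with earlier results of these data known, so counts set beside these shares are a description, not a test.

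**Figure D4:**
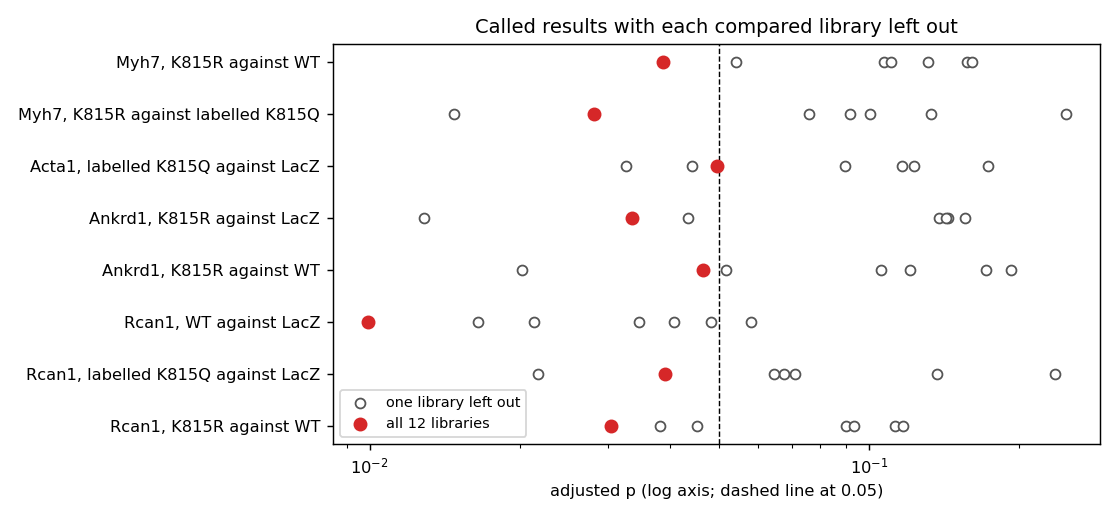
Adjusted p, on a log axis, for the 8 called results in the fit of all 12 libraries (filled) and with each compared library left out (open); the dashed line marks 0.05. Rcan1 in WT against LacZ keeps 5 of 6 open points under the line, and Myh7 in K815R against WT keeps 0.

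Summed cardiomyocyte markers were also highest in K815R by their mean. The 8 markers reached 33607 to 35563 CPM there, above LacZ at 30348 to 32638 without overlap, and overlapped WT at 32083 to 33633 and the K815Q-labelled libraries at 31900 to 33930. Of the 8 markers, 0 were called by edgeR between K815R and any other group, 1 to 2 had an unadjusted p under 0.05 and DESeq2 called 1 to 2. Actc1, the most abundant of the 8, averaged 12092 CPM in K815R. It averaged 10320 CPM in WT, 10237 in the K815Q-labelled libraries and 10485 in LacZ. The median log2 fold change of the 8 markers in K815R was 0.09 against LacZ. It was -0.04 against WT and -0.04 against the K815Q-labelled libraries, so the higher sum was not shared by the markers in general there. Fibroblast markers summed to 11081 to 11527 CPM in K815R and to 11836 to 12705 in LacZ. Between K815R and WT, 1 of the 9 fibroblast markers was called higher and 2 lower. Markers were also called where Acta1 and Rcan1 were lower than LacZ. Against LacZ, 2 cardiomyocyte markers were higher in WT, and of the fibroblast markers 2 were higher and 1 was lower. In the K815Q-labelled libraries, 1 cardiomyocyte and 3 fibroblast markers were higher than in LacZ. Their part in the falls of Acta1 and Rcan1 was not tested.

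Members were therefore also taken per 1000 CPM of the summed cardiomyocyte markers of the same library. On that scale Myh7 stood at 139 to 153 in K815R, 111 to 131 in WT and 97.7 to 125 in the K815Q-labelled libraries. The log2 difference of K815R from WT was 0.32 and from the K815Q-labelled libraries 0.43, without overlap. From LacZ, at 128 ± 15.8 (SD, n = 3), it was 0.22 with overlap, beside 0.33 from CPM. Myh6 was lower in K815R than in WT on this scale (-0.13) and than in LacZ (-0.10), both without overlap. From CPM these differences were -0.07 and 0.01. The marker sum includes Actc1, which was itself highest in K815R by its mean, and its part in these shifts was not tested. Ankrd1 kept groups without overlap in K815R against LacZ (0.35) and WT (0.38). Rcan1 did so in K815R against WT (0.21), in WT against LacZ (-0.33) and in the K815Q-labelled libraries against LacZ (-0.28). Acta1 did so in WT (-0.35) and in the K815Q-labelled libraries (-0.39) against LacZ, and in K815R against WT (0.22) and against the K815Q-labelled libraries (0.26). Whether muscle content accounts for any of these differences was not tested.

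Genes that work with these 6 were followed by lists. The share of all tested genes called, which stands beside each list, was 5.34% in WT, 2.47% in K815R and 7.85% in the K815Q-labelled libraries against LacZ. It was 2.2% in K815R against WT, 1.07% in the K815Q-labelled libraries against WT and 0.363% in K815R against these. Of 6 other myosin heavy chains tested, 1 rose in WT (beside 5.34%) and 1 in the K815Q-labelled libraries (beside 7.85%) against LacZ. In K815R against LacZ 0 were called by edgeR, with 3 at an unadjusted p under 0.05, and DESeq2 called 1. Lower calls numbered 1 in K815R against WT (beside 2.2%), 1 in K815Q-labelled against WT (1.07%) and 1 in K815R against K815Q-labelled (0.363%). Myh7b, a slow-type myosin gene, averaged 138 ± 4.45 CPM in WT, 118 ± 6.38 in the K815Q-labelled libraries, 106 ± 2.25 in K815R and 92.8 ± 3.97 in LacZ (SD, n = 3). It rose in WT against LacZ by 0.57 (adjusted p 5.78e-07 by edgeR) and in the K815Q-labelled libraries by 0.34 (adjusted p 2.07e-04 by edgeR), both kept whichever of the 6 compared libraries was left out. In K815R it was lower than in WT by -0.38 (adjusted p 1.93e-04 by edgeR), again kept in all 6 fits. Its highest group was WT, where that of Myh7 was K815R. Myh7b was also lower in the K815Q-labelled libraries than in WT (-0.23, adjusted p 0.0279 by edgeR), a call kept in 1 of 6 fits. Myh3, the embryonic chain, was lower in K815R than in the K815Q-labelled libraries (-0.54, adjusted p 0.0473 by edgeR), and 1 of 6 fits kept that call.

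Of 17 tested genes of myosin light chains, their kinases and myosin binding proteins, 2 rose and 3 fell in WT against LacZ, 1 fell in K815R and 2 fell in the K815Q-labelled libraries, beside 5.34%, 2.47% and 7.85% of all genes. Between WT, K815R and the K815Q-labelled libraries 0 were called by edgeR, with 2 to 3 at an unadjusted p under 0.05 in each comparison, and DESeq2 called 1 (K815R against K815Q-labelled). Myl1, a light chain of fast skeletal and fetal muscle, was lower in all 3 other groups than in LacZ. It stood at 14.6 to 18.7 CPM in LacZ, against 8.17 to 10.6 for WT, 9.18 to 9.99 for K815R and 8.16 to 10.3 for the K815Q-labelled libraries, without overlap. Its log2 fold changes were -0.80, -0.74 and -0.84 and no left-out library ended a call. Mybpc2, the fast-type myosin binding protein, fell in WT (-0.45) and in the K815Q-labelled libraries (-0.57), and Mybpc3, the cardiac type, rose in WT (0.24), all kept in 6 of 6 fits. Myl12b, a nonmuscle regulatory light chain, fell in WT (-0.21, kept in 3 of 6). Of the 5 other actins, 0 were called in any comparison by edgeR. DESeq2 called 1 in each comparison of K815R, where 1 to 3 had an unadjusted p under 0.05 by edgeR.

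Around Rcan1, 21 genes of calcineurin and NFAT were tested. The calls were Nfatc3 (-0.30) and Gsk3b (-0.26), an NFAT factor and an NFAT kinase. Both were lower in the K815Q-labelled libraries than in LacZ and kept in 2 of 6 fits each. That is 2 of 21 beside 7.85% of all genes called there, and 4.98% called lower. The list's medians ran from -0.06 to 0.04, with those of all genes between -0.00 and 0.01. Around Ankrd1, 17 titin-linked genes were tested: 3 rose in WT, 1 in K815R and 2 in the K815Q-labelled libraries against LacZ, and 0 fell, beside the same 5.34%, 2.47% and 7.85% of all genes. In K815R, 1 was higher than in WT (2.2% of all genes called) and 1 higher than in the K815Q-labelled libraries (0.363%). Ldb3, a Z-disc protein, rose in WT (0.17, kept in 2 of 6). Myom2, an M-band protein, rose against LacZ in WT (0.34), K815R (0.37) and the K815Q-labelled libraries (0.27), kept in 2, 2 and 1 of 6 fits. Trim63, a muscle ubiquitin ligase, rose in the K815Q-labelled libraries against LacZ (0.22, kept in 5 of 6). Csrp3, the stretch-sensing muscle LIM protein, differed between K815R and WT by 0.19 (adjusted p 0.0388 by edgeR) and kept the call in 0 of 6 fits.

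Around Xirp1, 18 genes of the intercalated disc were tested. Against LacZ, 1 rose and 1 fell in WT, beside 5.34% of all genes called. In the K815Q-labelled libraries 4 fell against LacZ, beside 7.85% of all genes called and 4.98% called lower. Xirp2, the paralog of Xirp1, was among them: 116 ± 8.94 CPM in LacZ against 85.7 ± 4.15 (SD, n = 3), a fall by -0.43 on the log2 scale (kept in 6 of 6 fits, adjusted p 6.66e-04 by edgeR). Xirp2 was also below LacZ without a call in WT (-0.21, adjusted p 0.0912 by edgeR) and in K815R (-0.22, adjusted p 0.115 by edgeR). Enah, an actin regulator, fell by -0.34 in the K815Q-labelled libraries (kept in 6 of 6) and by -0.25 in WT (3 of 6). Tln2, a talin, fell by -0.42 in the K815Q-labelled libraries (3 of 6). Svil, the membrane-linked actin binder supervillin, rose in WT (0.28, adjusted p 0.0151 by edgeR, kept in 4 of 6). Between WT, K815R and the K815Q-labelled libraries 0 of the 18 were called by edgeR, with 5 to 6 at an unadjusted p under 0.05, and DESeq2 called 2 in K815R against the K815Q-labelled libraries.

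Of 30 other genes known to shift in hypertrophy, 4 passed the test as higher with K815R than with WT and 0 as lower. Of all tested genes, 1.32% were called higher there. Lox, which crosslinks collagen, stood at 174 ± 3.70 CPM in K815R, 122 ± 8.04 in WT and 158 ± 6.60 in LacZ (SD, n = 3). It rose in K815R against WT by 0.50 (adjusted p 6.13e-04 by edgeR) and fell in WT against LacZ by -0.37 (adjusted p 0.00309 by edgeR), each kept in all 6 fits. Nppb, the B-type natriuretic peptide, was also higher in K815R than in WT, by 0.45. It was higher in K815R than in the K815Q-labelled libraries too (0.42, adjusted p 0.00293 by edgeR, kept in 6 of 6 fits). Against LacZ it fell in WT (-0.31, adjusted p 0.00498 by edgeR, kept in 6 of 6 fits) and in the K815Q-labelled libraries (-0.29, adjusted p 0.00968 by edgeR, kept in 3 of 6), and K815R did not pass the test (0.14). Against LacZ, 2 of the 30 rose and 5 fell in WT, 1 rose and 0 fell in K815R, and 3 rose and 2 fell in the K815Q-labelled libraries. The shares of all genes called in these comparisons were 5.34%, 2.47% and 7.85%. The metallothionein Mt1 fell in WT (-0.67), kept in 6 of 6 fits. The list's median in K815R against WT was 0.07, beside -0.00 for all genes.

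Of 36 tested transcription factors and cofactors, 0 were called in WT against LacZ or between WT, K815R and the K815Q-labelled libraries by edgeR, with 2 to 7 at an unadjusted p under 0.05, and DESeq2 called 0 there. Hand2, a heart transcription factor, rose in K815R against LacZ (0.27), and in the K815Q-labelled libraries Gata6 rose (0.20) and Yap1 fell (-0.27), each kept in 2 of 6 fits. That is 1 of 36 beside 2.47% of all genes called in the first comparison and 2 of 36 beside 7.85% in the second. Of 22 targets of SRF or YAP, the 1 call was Zyx, a focal adhesion protein that fell in WT (-0.17, adjusted p 0.0457 by edgeR, kept in 1 of 6). In that comparison 5.34% of all genes were called.

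**Figure D5:**
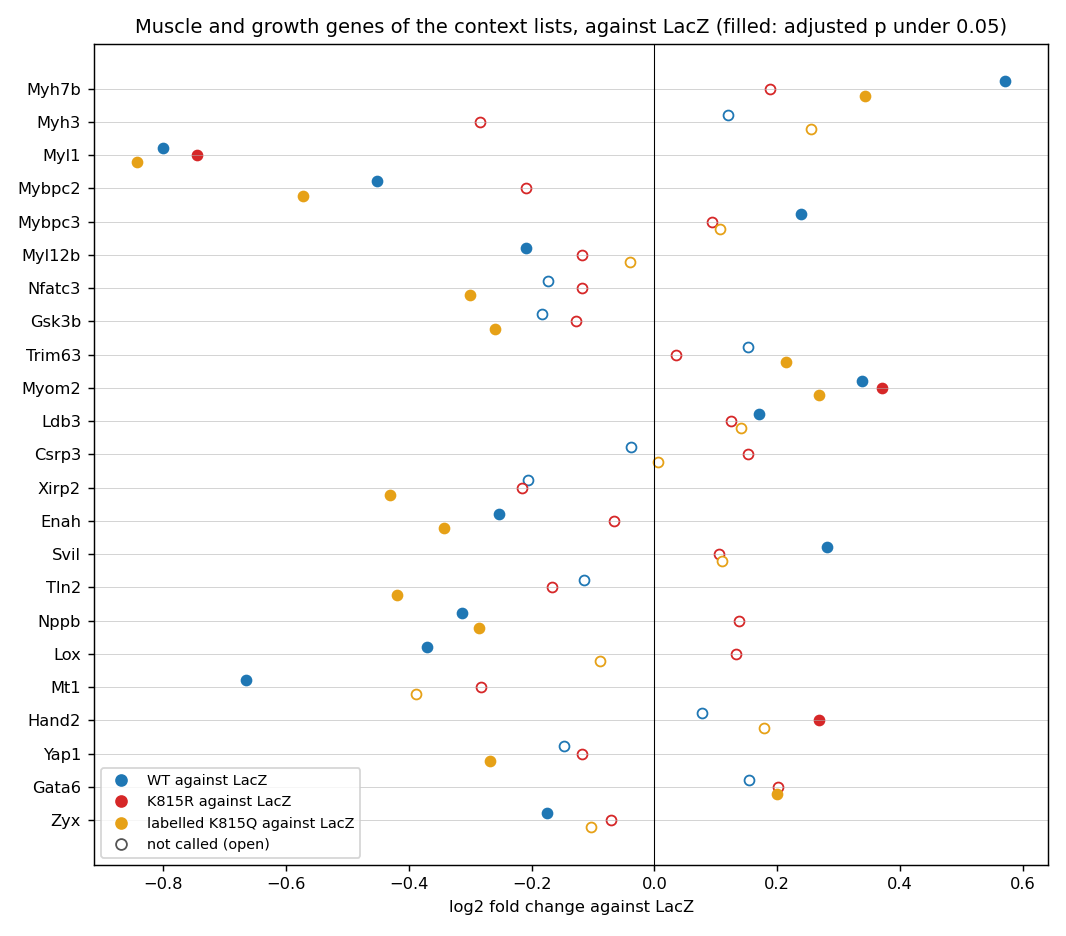
Log2 fold change against LacZ of the called genes named from the lists, for WT (blue), K815R (red) and the K815Q-labelled libraries (orange); filled points passed an adjusted p of 0.05. Myl1 is lower in all 3 at -0.84 to -0.74, and Myh7b is filled on the higher side in WT (0.57) and in the K815Q-labelled libraries (0.34).

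The genes whose pattern over the 12 libraries was most like that of each member were found among 9982 genes of at least 5 CPM, by Pearson's r of log2 CPM, given as a description. The libraries form groups, so r mixes differences between groups with those inside them. Myh7 was most like C2cd4b (r = 0.91), a row whose symbol the table gives as 6-Sep (0.91) and Mxi1 (0.90). Myh6 was most like Ptpn3 (0.91), Nras (0.90) and Fbxo40 (0.89). Acta1 was most like Cnn1 (0.96), the smooth muscle calponin, and the sugar-phosphate enzymes Pgam1 (0.95) and Pgm1 (0.94). Ankrd1 was most like Myl12a (0.91), Ebf3 (0.90) and Mtcl1 (0.89). Rcan1 was most like Wipi1 (0.93), Litaf (0.91) and Psmd10 (0.90), and Xirp1 was most like Tln1 (0.92), Ptprk (0.91) and Erbb2 (0.88). Without the 2 libraries farthest from the member's median, these values lay between 0.72 and 0.96. No member was among the 3 genes most like another, and 0.230% to 0.882% of these genes had r over 0.8 with a given member.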

How the data were processed

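The authors deposited raw counts, 1 table of reads per gene with identifiers and symbols. The submitters' processing notes name Trimmomatic 0.39, HISAT2 2.2.1, HTSeq 0.6.1, edgeR and the build Rnor_6.0. The annotation and the strand setting of the counting are not given in the sources used here. Per the labels, RNA was poly(A)-selected, made into strand-specific libraries and sequenced as single reads. The 5 counter lines that name no gene held 40.7% to 43.3% of all reads and were left out. Reads aligned to more than 1 place were 25.6% to 26.9%. Myh6 and Myh7 are close copies, as are the actins, so their levels are uncertain to the extent that shared reads were dropped.

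Columns were matched to sample titles. Low genes were removed with filterByExpr (at least 10 counts, 15 in total), the rest scaled by TMM and tested with edgeR 4.0.16 (R 4.3.3): quasi-likelihood test, robust dispersion, 4 group means over 12 libraries, Benjamini-Hochberg adjustment over 14063 genes. Replicates differed by more than sampling noise (chi-square per degree of freedom 4.54 to 8.74). The Myh7 to Myh6 ratio used exact permutation tests. The 6 genes, the lists and the tests were chosen with earlier results of these data known. Named beside the 6 genes were Kat6a, up to 4 called genes per list by lowest adjusted p (where none was called, the gene of highest CPM) and the 3 genes most like each member. A gene that met this rule is not reported here. In simulated counts for K815R against WT (13925 genes), 28 of 50 genes changed 1.3-fold and 36 of 50 changed 1.5-fold were called, and 10 unchanged genes were. Promoter windows (found for 5 of the 6 genes) and microRNAs are from RefSeq (GRCr8). No coordinate of that build was joined to the counts. Alternatives tried: scaling by RLE or by upper quartile; testing without a filter or with 10 counts required in every library; a block for the replicate number; DESeq2 1.42.0; fitting the compared groups alone; leaving out each library.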

Additional observations from a re-analysis of the deposited data

How the results depend on the processing

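No member's direction reversed under another scaling, filter, tool, block or choice of groups. The count of members called moved. In WT against LacZ (1 by edgeR) DESeq2 called 2. In K815R against LacZ (1) it was 2 under upper-quartile scaling, DESeq2, the replicate block and, chosen after seeing the data, without the K815Q-labelled libraries, Myh7 being gained each time (adjusted p 0.0335 with the block, by edgeR). In K815Q-labelled against LacZ (2) it was 1 under upper-quartile scaling and the replicate block, where Acta1 was lost (adjusted p 0.0866 with the block, by edgeR). In K815R against K815Q-labelled (1) it was 2 with no filter, DESeq2 or only the 6 libraries compared. In K815R against WT (3) it was 2 with no filter, where Ankrd1 was lost. In K815R against LacZ with no filter Myh7 was called in place of Ankrd1. The joint test (3) gave 2 with no filter and 4 with DESeq2. The cause was not tested.

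With each library left out the counts ran from 0 to 1 in WT, K815R and K815Q-labelled against LacZ. They ran from 0 to 2 in K815R against WT, 0 to 1 in K815R against K815Q-labelled and 1 to 4 in the joint test. The 1 was without K815R replicate 2. Calls over all genes moved in the same fits, with 14229 to 14269 genes tested. Against LacZ they ran from 378 to 639 in WT (751 with all libraries), 173 to 308 in K815R (348) and 360 to 1182 in K815Q-labelled (1104). K815R had 124 to 177 against WT (309) and 11 to 98 against K815Q-labelled (51). The joint test had 650 to 1309 (1143). Uncalled differences near 0 changed sign: Myh6 in K815R against LacZ (-0.0040 to 0.029), K815Q-labelled against LacZ (-0.052 to 0.017) and K815R against K815Q-labelled (-0.0094 to 0.059), Myh7 in WT against LacZ (-0.12 to 0.066), Acta1 in K815R against LacZ (-0.081 to 0.085) and K815Q-labelled against WT (-0.14 to 0.027), Ankrd1 in WT against LacZ (-0.052 to 0.11), Rcan1 in K815R against LacZ (-0.084 to 0.038), and Xirp1 in K815R against WT (-0.092 to 0.031) and against K815Q-labelled (-0.037 to 0.083).

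The replicate numbers showed no clear pairing over all 4 groups. Same-numbered libraries correlated at -0.13 to 0.12 in their deviations from group means, and 5 of 12 matched their own number best. Same-numbered pairs with LacZ ran from -0.13 to 0.028. Those among WT, K815R and K815Q-labelled were all positive, at 0.00019 to 0.12, where different-numbered pairs ran from -0.13 to 0.060. With 3 libraries a group this check is weak and cannot show whether there was pairing. The replicate block raised the genes called in each pairwise comparison, as from 309 to 343 in K815R against WT and from 51 to 86 in K815R against K815Q-labelled. With the replicate block the ratio test gave p = 0.0451 (exact permutation within numbers), and for the share of Myh7 in place of the log2 ratio p was 0.0131 (exact permutation).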

Other observations

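The Myh7 to Myh6 ratio was tighter in K815R than in any other group. Its SD was 0.00372 over 3 libraries, against 0.0469 in LacZ, 0.0218 for WT and 0.0234 for the K815Q-labelled libraries. The share of Myh7 in K815R was 29.1%, 29.1% and 28.8%, and the exact 95% binomial intervals of these shares ran from 29.0% to 29.3%, 29.0% to 29.3% and 28.7% to 29.0%. Intervals of this kind cover counting error only. With 3 libraries a group the difference in spread was not tested.

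LacZ replicate 2 had the highest level of its group for Myh7 (4715 CPM) and Acta1 (871 CPM) and the lowest for Ankrd1 (2729 CPM) and Xirp1 (235 CPM). Without it the sign of Myh7 in WT against LacZ changed (0.066), and Myh7 was called in K815R against LacZ.

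The 6 genes did not share one order of the groups. By their means, Myh7 and Ankrd1 were highest in K815R, Acta1 and Rcan1 in LacZ with K815R next, and Myh6 and Xirp1 in WT.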
